A study of Gossypium barbadense with 48 samples.

Results

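The 3 genes of glutathione and reactive oxygen chemistry followed here through fiber development in *Gossypium barbadense* were *GSTU17* (Gbar_D11G024050, glutathione S-transferase U17), *PARB* (Gbar_D08G013640, glutathione S-transferase PARB) and *GLP10* (Gbar_D08G014260, germin-like protein subfamily 2 member 4). They are 3 of the 69337 genes in the deposited tables. They were chosen for the size of their changes in these same libraries, so the comparisons that singled them out are described below without a test. For *GSTU17* these are the steps from 0 to 5 days postanthesis (DPA) in both cultivars, the step from 25 to 30 DPA in PimaS-7, and the difference between cultivars at 30 and 35 DPA. For *PARB* it is the step from 20 to 25 DPA in both cultivars, and for *GLP10* that step and the one from 30 to 35 DPA in PimaS-7.

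The 48 libraries comprise 3 replicates of each of 2 cultivars, the American PimaS-7 and the Chinese 5917, taken every 5 days from 0 to 35 DPA, which makes 16 groups. The cultivars are the parents of a recombinant inbred population in which intervals for fiber strength had been mapped. By the methods of the study ovules were taken at 0 DPA and fibers thereafter, while the labels call every sample fiber. Only 1 line stands for each cultivar. The methods speak of 2 plants of the parents and of 3 biological replicates, which leaves unclear whether the replicates of a cultivar were separate plants, so the p-values measure the spread between these samples. In such bulk samples, fewer cells of a type and less RNA per cell cannot be told apart.

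Glutathione S-transferases join the tripeptide glutathione to reactive or foreign compounds, and some also reduce peroxides. *GSTU17* belongs to the tau class of plants, whose Arabidopsis namesake takes part in light and abscisic acid responses, and the name *PARB* comes from an auxin-responsive transferase gene of tobacco. Germin-like proteins are secreted cupins of the cell wall, and some members of the family release hydrogen peroxide by breaking down oxalate or superoxide. Cotton fibers elongate first and then deposit a thick cellulose wall, and hydrogen peroxide has been linked to the passage between these phases.

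In the Pima 3-79 HAU v2.0 assembly, *GSTU17* lies on chromosome D11 from 40391607 to 40393710 on the minus strand. *PARB* lies on D08 from 43052077 to 43053464 and *GLP10* on the same chromosome from 44775825 to 44776891, both on the plus strand, with 1722360 bases between them. All 3 fall in intervals mapped for fiber strength. Exons and UTRs were not analysed here. The tetraploid carries related copies of most genes, and how reads were shared between such copies is not given in the sources used here, so each level may hold reads of a close copy.

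Library depth lay between 28222056 and 43390702 total counts (median 32756789). Of the 48 libraries, 44 were most correlated with a replicate of their own group. The other 4 were replicates 1 and 2 of 5917 at 25 DPA, which were closest to libraries of 5917 at 30 DPA, and replicates 2 and 3 of 5917 at 30 DPA, which were closest to replicate 1 at 35 DPA. The fiber marker *TUBB1*, a beta tubulin, had at most 0.31 FPKM (fragments per kilobase of gene, scaled to library size) in the ovules and between 152.8 and 307.6 FPKM at 20 DPA, and the summed FPKM of 5 genes of dividing cells was between 100.2 and 151 in ovules and between 41.8 and 52.1 at 20 DPA. At 5 DPA *TUBB1* had 0.18 to 1.60 FPKM, overlapping with the ovules, and the sum of the dividing cell list was between 52.3 and 96.8. Within that list both *HIS2A* histone genes and *At5g27670* had lower means at 20 DPA than in ovules, while *At1g54690* had higher ones, 39.5 against 24.3 FPKM in PimaS-7 and 40.7 against 30.3 FPKM in 5917, and *CYCD4-1* had 0.78 FPKM at 20 DPA against 0.66 in PimaS-7 and 0.79 against 0.72 in 5917. Of the seed markers, *LEA6* was at most 0.56 FPKM in any ovule library, and a basic 7S globulin gene (Gbar_D08G020900) had 1.11 to 2.52 FPKM in ovules and 4.59 to 6.39 FPKM at 5 DPA.

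*GSTU17* was the gene of the early and middle stages. It was higher at 5 DPA than in ovules and highest at 10 DPA in both cultivars, which then took different courses. In 5917 it fell at 15 DPA, to a mean of 122 FPKM, and had 284 FPKM at 20 DPA, whereas PimaS-7 had means of 335 and 345 FPKM at 15 and 20 DPA. After 25 DPA the order turned, and PimaS-7 fell to a small part of the 5917 level.

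In the ovules *GSTU17* had 42.8, 49.2 and 51.4 FPKM in PimaS-7 and 24.7, 27.1 and 26.6 FPKM in 5917. By 5 DPA the values were 344, 445 and 234 FPKM in PimaS-7 and 461, 304 and 227 FPKM in 5917. The level had thus gone up in every library of both cultivars, and the cultivars overlapped. At 10 DPA PimaS-7 had 469, 604 and 594 FPKM and 5917 had 708, 671 and 702 FPKM, the highest group mean of all 16 groups at 693 ± 19.8 FPKM (SD, n = 3). With this mean *GSTU17* was the 46th most abundant of all genes by FPKM in 5917, and the 48th in PimaS-7.

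The sharpest contrast of the middle stages came at 15 DPA. PimaS-7 then had 336, 349 and 322 FPKM, and 5917 had 97.2, 96.9 and 172 FPKM, so the groups did not overlap, as was true of 50.3% of the genes with more than 0.5 FPKM in at least 3 of these libraries. At 20 DPA the values were 198, 439 and 397 FPKM in PimaS-7 and 181, 312 and 359 FPKM in 5917, and the groups overlapped widely. Replicate 1 was the lowest of its group in both cultivars at 20 DPA.

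From 25 DPA the gene declined. PimaS-7 had 110.4, 124 and 110.5 FPKM and 5917 had 87.0, 91.5 and 67.8 FPKM. At 30 DPA the replicates of PimaS-7 were nearly alike, with 17.2, 16.6 and 16.4 FPKM, while 5917 had 59.9, 48.2 and 61.3 FPKM. All libraries of 5917 stood above all libraries of PimaS-7 at this stage, where 42.2% of genes did not overlap. By 35 DPA PimaS-7 had 4.81, 5.93 and 2.57 FPKM and 5917 had 18.1, 32.96 and 29.99 FPKM, again with no overlap, at a stage where 58.7% of genes had none.

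**Figure D1:**
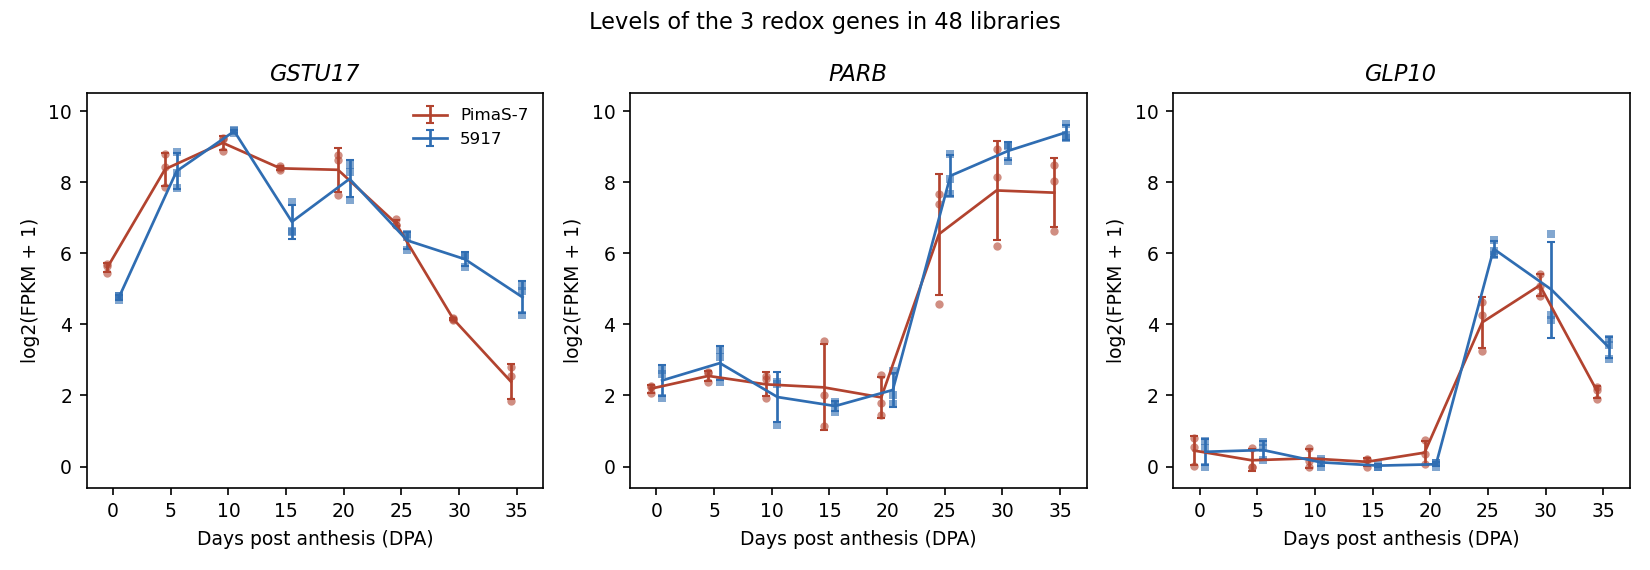
Levels of *GSTU17*, *PARB* and *GLP10* as log2(FPKM + 1) against days postanthesis, with PimaS-7 as red circles and 5917 as blue squares. Points are the 48 libraries and lines with bars the mean and SD of 3 libraries. *GSTU17* peaks at 10 DPA with a dip in 5917 at 15 DPA, *PARB* lies at or below 10.6 FPKM to 20 DPA and at or above 22.9 FPKM from 25 DPA, and *GLP10* is above 1 FPKM only from 25 DPA.

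The order of the 16 group means in FPKM ran from 10 DPA (5917, then PimaS-7) through 5 and 20 DPA of both cultivars and 15 DPA of PimaS-7, then 15 DPA of 5917 and 25 DPA of both, 30 DPA of 5917, the ovules of both and 35 DPA of 5917, down to 30 and 35 DPA of PimaS-7 at 16.8 and 4.44 FPKM. The 5 groups between 345 and 284 FPKM (20, 5 and 15 DPA of PimaS-7, 5 and 20 DPA of 5917) overlapped each next lower one within this block and cannot be ranked by FPKM. In counts scaled to library size (CPM), PimaS-7 at 15 DPA (876 to 888) lay above 5 DPA of both cultivars (338 to 759 and 398 to 830). In FPKM 5917 at 15 DPA overlapped with PimaS-7 at 25 DPA, and 5917 at 30 DPA with PimaS-7 ovules. So did 5917 at 35 DPA with 5917 ovules, at 27.03 and 26.1 FPKM. In CPM the first pair overlapped as well, while 5917 at 30 DPA had 141 to 258 against 55.8 to 66.4 in PimaS-7 ovules. At 35 DPA 5917 had 57.2 to 117 CPM against 33.5 to 35.1 in its ovules. In PimaS-7 the highest stage mean in FPKM was 125 times the lowest, which was that of 35 DPA. In 5917 it was 26.5 times the lowest, which was that of the ovules.

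Fold changes were estimated from counts with edgeR, and calls required an adjusted p no higher than 0.05 and a log2 fold change of 1 or more in size. Between 0 and 5 DPA, *GSTU17* was higher by 3.04 ± 0.29 (log2 fold change ± SE) in PimaS-7 and by 4.08 ± 0.28 in 5917, comparisons that chose the gene and that called 16.1% and 25.1% of all genes tested. From 5 to 10 DPA it rose further in 5917, by 1.504 ± 0.25 (adjusted p = 0.0033), a step in which 23.4% of all genes tested were called in either direction. In PimaS-7 the same step gave 1.03 ± 0.30 (adjusted p = 0.033) with 20.9% of genes called. That call was lost on leaving out any 1 of the libraries of this step other than replicate 2 at 5 DPA, with log2 fold changes of 0.78 to 1.34.

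From 10 to 15 DPA the 2 cultivars parted. In 5917 *GSTU17* fell by 2.21 on the log2 scale (SE 0.23, adjusted p = 0.00022), with 20.3% of genes called in that step. In PimaS-7 the estimate was -0.36 ± 0.12 (adjusted p = 0.057), and the step called 12.1% of genes. The test of the difference between these steps gave 1.83 ± 0.28 (change in PimaS-7 minus change in 5917, adjusted p = 0.0017), in a test that called 6.89% of genes, and *GSTU17* was called on leaving out each of the 12 libraries in turn. Correspondingly, PimaS-7 exceeded 5917 at 15 DPA by 1.24 ± 0.21 (adjusted p = 0.0047), with 12.6% of genes called. Without replicate 3 of 5917, the highest of its group, this difference was 1.56 (adjusted p = 0.00024). The rise of 5917 from 15 to 20 DPA, at 1.17 ± 0.29, was not called (adjusted p = 0.17), in a step that called 0.374% of genes. At 20 DPA the cultivars differed by 0.19 ± 0.35, with a 95% interval of -0.49 to 0.87.

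From 20 to 25 DPA *GSTU17* fell in both cultivars, by 1.29 on the log2 scale in PimaS-7 (SE 0.31, adjusted p = 0.024) and by 1.72 in 5917 (SE 0.36, adjusted p = 0.0093), in steps that called 14.1% and 25.7% of genes. The difference of these steps was not called (0.42 ± 0.50, interval -0.55 to 1.39, adjusted p = 0.60). The call in PimaS-7 was lost without replicate 2 or 3 at 20 DPA or replicate 1 or 3 at 25 DPA, with log2 fold changes of -1.59 to -1.02 over the 6 libraries left out. The call in 5917 was lost without replicate 3 at 20 DPA (-1.49, adjusted p = 0.051).

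In PimaS-7 the level then dropped from 25 to 30 DPA by 3.16 on the log2 scale (SE 0.15), against an estimate of -0.33 ± 0.34 in 5917, in steps that called 18.2% and 0.0395% of genes. The former chose the gene, and the difference of the steps, at -2.86 ± 0.39, shares its libraries. The last step, from 30 to 35 DPA, gave a further fall in PimaS-7 (log2 fold change -2.003, SE 0.36, adjusted p = 0.036), with 3.95% of genes called. That call was kept only without replicate 2 at 35 DPA, and was lost on leaving out each other library of the step, with log2 fold changes of -2.46 to -1.69. All libraries of this step also belong to comparisons that chose the gene, so its p rests on values that took part in that choice. In 5917 the last step gave -1.17 ± 0.32 and was not called by edgeR (adjusted p = 0.29), in a step that called only 0.0182% of genes, while DESeq2 called it (-1.20, adjusted p = 0.016). The difference between cultivars was -2.22 ± 0.26 at 30 DPA and -3.12 ± 0.43 at 35 DPA, in the comparisons that chose the gene, where 7.83% and 18.2% of genes were called.

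At the remaining stages the cultivars were closer. In ovules PimaS-7 was above 5917 by 0.86 ± 0.10 (adjusted p = 0.0050), and at 10 DPA it was below by 0.58 ± 0.14 (estimate -0.58, adjusted p = 0.041), both under the fold required for a call. The difference was -0.11 ± 0.36 at 5 DPA and 0.59 ± 0.29 at 25 DPA (adjusted p = 0.26). Over the 22 comparisons between neighboring stages or between cultivars, *GSTU17* was tested in all, called in 12 and called in 7 of those that had not chosen it. Several of these 7 share libraries with the comparisons that did. The share of all genes tested that was called ran from 0.0182% to 25.7% over the 14 steps and from 2.51% to 18.2% over the 8 cultivar contrasts.

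*PARB* behaved in the opposite manner. It was low in ovules and elongating fibers, came on between 20 and 25 DPA in both cultivars, and stayed high to the end of the series. The cultivars overlapped at 25 and 30 DPA, and at 35 DPA 5917 was the higher one with no overlap.

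From 0 to 20 DPA, *PARB* ranged from 1.21 to 10.6 FPKM over the 15 libraries of PimaS-7, with the highest value in replicate 2 at 15 DPA, and from 1.23 to 8.68 FPKM over the 15 of 5917. These early groups overlapped with their neighbors in the order of means, from 6.78 FPKM in 5917 at 5 DPA down to 2.27 FPKM in 5917 at 15 DPA. At 25 DPA PimaS-7 had 166, 22.9 and 202 FPKM and 5917 had 202, 444 and 271 FPKM. Replicate 2 of PimaS-7 thus stood far below the others, while replicate 2 of 5917 was the highest.

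At 30 DPA the 3 libraries of PimaS-7 had 487, 286 and 73.5 FPKM, and those of 5917 had 516, 388 and 525 FPKM. Replicate 3 of PimaS-7 was the low one here, and the groups overlapped. At 35 DPA PimaS-7 had 259.9, 355 and 97.6 FPKM and 5917 had 601, 801 and 642 FPKM. Every library of 5917 was above every library of PimaS-7, beside the 58.7% of genes that did not overlap at this stage. With a mean of 682 ± 106 FPKM (SD, n = 3), *PARB* was the 71st most abundant gene of 5917 at 35 DPA, after being 16614th at 20 DPA. In PimaS-7 it was highest by rank at 35 DPA as well, in place 134, with a mean of 238 ± 130 FPKM.

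In the order of the late groups by FPKM, 5917 at 35 DPA (682 FPKM) stood above 5917 at 30 DPA (476 FPKM) with no overlap, as for 15.5% of genes in that step. In CPM these groups overlapped, with 1061 to 1588 at 35 DPA and 634 to 1244 at 30 DPA. Below 5917 at 30 DPA, 5917 at 25 DPA and PimaS-7 at 30, 35 and 25 DPA, with means of 306, 282, 238 and 130 FPKM, each overlapped with the next. All 18 libraries from 25 DPA on lay above all 30 libraries from 0 to 20 DPA. This includes the step that chose the gene, and the share of all genes with such a separation was not analysed here. From 20 to 25 DPA alone, 50.8% of genes in PimaS-7 and 48.8% in 5917 did not overlap.

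The step from 20 to 25 DPA, which chose the gene, amounted to 5.66 ± 0.84 in PimaS-7 and 6.51 ± 0.58 in 5917 on the log2 scale. In FPKM, the mean at 25 DPA was 42.3 and 84.5 times that at 20 DPA. Without the low replicate 2, the step of PimaS-7 was 6.15. After 25 DPA no step of *PARB* was called. From 25 to 30 DPA the estimate was 0.80 ± 0.87 in PimaS-7 (interval -0.91 to 2.52, adjusted p = 0.51) and 0.81 ± 0.47 in 5917 (interval -0.12 to 1.73, adjusted p = 0.78). The step of 5917 called only 0.0395% of all genes. From 30 to 35 DPA it was -0.35 ± 0.76 in PimaS-7 (adjusted p = 0.82) and 0.40 ± 0.31 in 5917 (interval -0.21 to 1.02, adjusted p = 0.75), although the groups of 5917 did not overlap in FPKM, as for 15.5% of genes.

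Between cultivars *PARB* was called at 35 DPA alone among the 8 stages, where PimaS-7 was below 5917 by a log2 fold change of -2.02 ± 0.53 (adjusted p = 0.031), a contrast that called 18.2% of genes tested. The call was lost on leaving out replicate 1 of PimaS-7 or any replicate of 5917, and kept without the low replicate 3 of PimaS-7 (-1.64, adjusted p = 0.044). The log2 fold changes over the libraries left out ran from -2.64 to -1.64. At 25 DPA the estimate was -1.21 ± 0.73 (interval -2.64 to 0.21, adjusted p = 0.35), and it was -0.72 without replicate 2 of PimaS-7 and -0.59 without replicate 2 of 5917. At 30 DPA it was -1.19 ± 0.63 (interval -2.43 to 0.05, adjusted p = 0.25), and -0.73 without replicate 3 of PimaS-7. Neither stage was called. At the 5 earlier stages the estimates lay between -0.64 and 0.87, with adjusted p of 0.22 to 0.81.

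In the early stages *PARB* moved little. From 0 to 5 DPA it was higher by 0.64 ± 0.19 in PimaS-7 (adjusted p = 0.042, under the fold required) and by 1.00 ± 0.36 in 5917 (adjusted p = 0.053). The latter was called in 2 of 6 alternatives of tool, scaling, filter or design. DESeq2 was among these, at 1.06 with an adjusted p of 0.016. It was also called without replicate 1 at 0 DPA or replicate 3 at 5 DPA. Of the 22 comparisons, all tested, *PARB* was called in 3, and 1 of these had not chosen it. These comparisons called from 0.0182% to 25.7% of all genes tested.

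**Figure D2:**
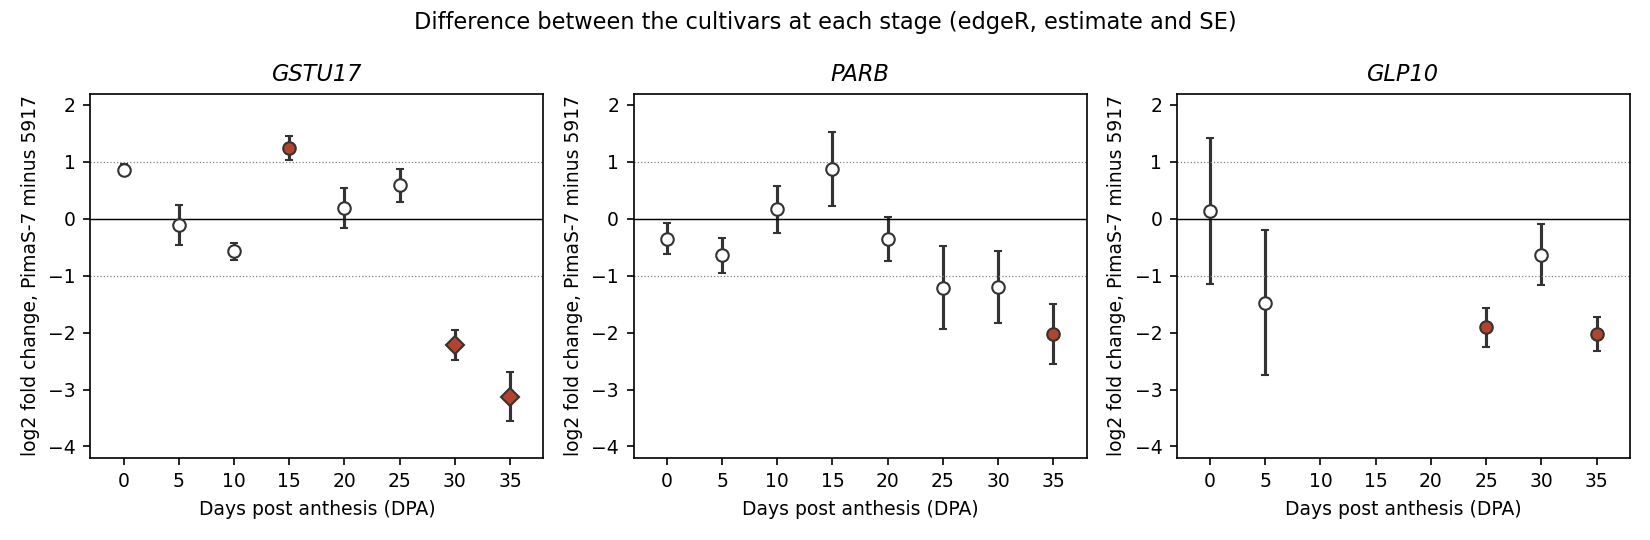
Log2 fold change of PimaS-7 minus 5917 at each stage, by edgeR on 6 libraries, with bars for 1 SE. Filled points were called and open ones were not, diamonds mark comparisons that chose the gene, and dotted lines mark the fold required. *GSTU17* turns from 1.24 at 15 DPA to -3.12 at 35 DPA, and *PARB* and *GLP10* reach -2.02 and -2.03 at 35 DPA, while *GLP10* was not tested from 10 to 20 DPA.

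*GLP10* was a gene of the late stages. It stayed below 1 FPKM in every library up to 20 DPA, appeared at 25 DPA, and was low again at 35 DPA in both cultivars. The 5917 level was above that of PimaS-7 at 25 and at 35 DPA, and the highest single library was one of 5917 at 30 DPA.

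Up to 20 DPA *GLP10* had between 0 and 27 counts per library in PimaS-7, with 4 of 15 libraries at 0, and between 0 and 25 in 5917, with 5 of 15 at 0. The highest early values were 0.73 FPKM in PimaS-7 and 0.65 FPKM in 5917, both in ovules. At 25 DPA PimaS-7 had 18.4, 8.53 and 23.98 FPKM and 5917 had 65.5, 60.7 and 81.9 FPKM. The cultivars did not overlap, as for 29.2% of genes at this stage, and replicate 2 of PimaS-7, the low library for *PARB*, was the lowest here too.

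At 30 DPA PimaS-7 had 26.9, 32.9 and 41.8 FPKM, and 5917 had 16.5, 92.1 and 18.3 FPKM. In FPKM the libraries of 5917 thus split into replicate 2, near the level of 25 DPA, and the other 2, below all of PimaS-7. In CPM replicates 1 and 3 of 5917 had 34.05 and 30.3, against 33.1, 37.5 and 45.95 in PimaS-7, so replicate 1 was within its range. Replicates 2 and 3 of 5917 are those closest to a library of 35 DPA over all genes. At 35 DPA PimaS-7 had 3.45, 3.74 and 2.76 FPKM and 5917 had 7.21, 11.01 and 9.76 FPKM. Both cultivars were then below their own 30 DPA values in every library, and they did not overlap with each other.

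The order of the 6 late groups was 5917 at 25 DPA (69.4 ± 11.1 FPKM, SD, n = 3), 5917 at 30 DPA (42.3 ± 43.1), PimaS-7 at 30 DPA (33.9 ± 7.47), PimaS-7 at 25 DPA (16.97 ± 7.82), 5917 at 35 DPA (9.33 ± 1.94) and PimaS-7 at 35 DPA (3.32 ± 0.50). In FPKM the first 3 of these overlapped in turn, as did PimaS-7 at 25 DPA with 5917 at 35 DPA. In CPM PimaS-7 at 30 DPA (33.1 to 45.95) also overlapped with PimaS-7 at 25 DPA (14.6 to 36.8). The 10 early groups, with means of 0.40 FPKM or less, all overlapped with their neighbors in the order.

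The step from 20 to 25 DPA chose the gene. Summed over 3 libraries, PimaS-7 went from 38 to 1809 counts, which is 49.2 times as many per total count (95% interval 35.7 to 69.7, exact binomial, counting error only). The corresponding counts of 5917 were 7 and 8029, a ratio of 1139 with an interval of 553 to 2834. The edgeR estimates were 5.85 ± 0.64 and 10.04 ± 0.53 on the log2 scale, and their size rests on the few counts at 20 DPA. The difference between these steps, at -4.19 ± 0.95, shares those counts and the choice of the gene.

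At 25 DPA PimaS-7 was below 5917 by a log2 fold change of -1.91 ± 0.34 (adjusted p = 0.020), in a contrast that called 6.91% of genes. This contrast shares the 25 DPA libraries with the step that chose the gene. Its call was lost without replicate 1 of PimaS-7 (-1.97, adjusted p = 0.075) or replicate 3 of 5917 (-1.90, adjusted p = 0.066), and kept without the low replicate 2 of PimaS-7 (-1.60, adjusted p = 0.027). At 35 DPA the difference was -2.03 ± 0.29 (adjusted p = 0.0068), beside 18.2% of genes called, and *GLP10* was called on leaving out each library of this contrast in turn. The PimaS-7 libraries of 35 DPA are shared with the step from 30 to 35 DPA, which also chose the gene. At 30 DPA the estimate was -0.63 ± 0.54 (interval -1.68 to 0.42, adjusted p = 0.47), and without replicate 2 of 5917 it turned to 0.38 (adjusted p = 0.27).

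Between 25 and 30 DPA *GLP10* was not called in either cultivar. The estimate was 0.63 ± 0.33 in PimaS-7 (adjusted p = 0.19) and -0.63 ± 0.54 in 5917 (adjusted p = 0.89), which became -1.65 without replicate 2 at 30 DPA (adjusted p = 0.14). From 30 to 35 DPA it was lower by 3.45 in PimaS-7 (log2 fold change -3.45 ± 0.26), a step that chose the gene. No gene was called in that step, *GLP10* included, without replicate 2 at 30 DPA or replicate 1 at 35 DPA, where the log2 fold change of *GLP10* was -3.48 and -3.43, or with a replicate block. The same step of 5917 gave -2.12 ± 0.55 and was not called (adjusted p = 0.28), and was -1.11 without replicate 2 at 30 DPA. DESeq2 called it at an adjusted p of 0.0014. Of the 22 comparisons *GLP10* was tested in 13, since the others held too few counts, and was called in 5, of which 2 had not chosen it. Both of these 2 share libraries with steps that did. The share of all genes called ran from 0.0182% to 25.7% over the steps and from 2.51% to 18.2% over the cultivar contrasts.

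Across all 48 libraries, log2(FPKM + 1) of *PARB* and *GLP10* had a Pearson r of 0.88, while *GSTU17* had an r of -0.64 with *PARB* and -0.50 with *GLP10*. These correlations describe the shared course over stages, which includes the step that chose *PARB* and *GLP10*. Within the 18 libraries from 25 to 35 DPA the r of *PARB* and *GLP10* was 0.081, and 0.16 between their deviations from the group means. The 2 genes shared the time of onset, by which both were chosen, but not the course after it: *PARB* stayed high at 35 DPA, where *GLP10* was low. In the same 18 libraries *GSTU17* and *GLP10* had an r of 0.60 and *GSTU17* and *PARB* one of -0.069. Between deviations from the group means these were -0.14 and 0.28, of opposite sign. At 30 DPA the replicates of PimaS-7 were in opposite orders for *PARB* and *GLP10*, and replicate 2 of 5917 was its lowest for *PARB* and its highest for *GLP10*.

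**Figure D3:**
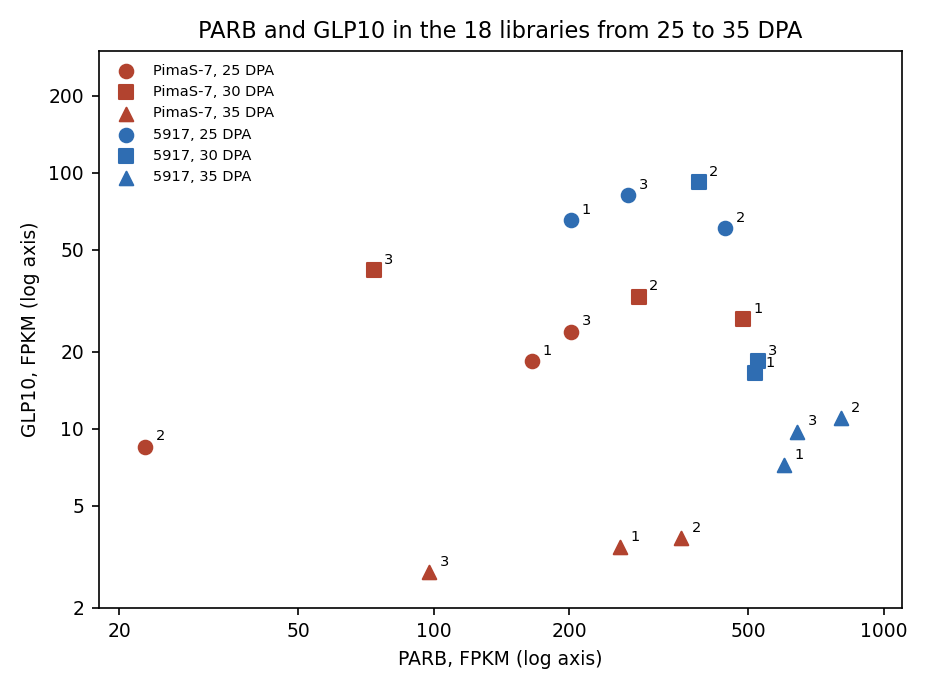
*PARB* against *GLP10* in FPKM on log axes for the 18 libraries from 25 to 35 DPA, with colors for the cultivars, symbols for the stage and numbers for the replicate. At 35 DPA both cultivars lie low in *GLP10* (2.76 to 11.01 FPKM) at high *PARB* (97.6 to 801 FPKM), and replicate 2 of PimaS-7 at 25 DPA is the lowest library for *PARB*.

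Some markers of the fiber wall and 1 of photosynthetic tissue were higher at the late onset. The summed FPKM of 6 fiber wall and cytoskeleton genes was between 366 and 462 in PimaS-7 and between 289 and 305 in 5917 at 20 DPA, and between 1303 and 2171 and between 1321 and 2117 at 25 DPA. Most of this sum was *TUBB1*, and *MYB86* and *TBL43* were also higher at 25 DPA, whereas *CSI1*, *CESA3* and *CESA6* of the cellulose synthase complex were not. In 5917 the means of these 3 were 37.7, 84.9 and 3.30 FPKM at 20 DPA and 20.2, 61.4 and 1.73 FPKM at 25 DPA. At 35 DPA the sum was between 107 and 182 in PimaS-7 and between 640 and 1089 in 5917. Of 7 genes of photosynthetic tissue 4 were measured, and their sum was at most 4.37 FPKM at 20 DPA, and at 25 DPA it was 5.79 to 15.4 in PimaS-7 against 19.4 to 39.95 in 5917. *PSBW*, a photosystem II protein, made up most of this sum, as the other 3 genes were at most 0.70 FPKM at 25 DPA, with 5.90, 14.5 and 5.39 FPKM in PimaS-7 and 18.8, 38.97 and 24.5 FPKM in 5917 at 25 DPA. At 35 DPA the photosynthetic sum was 1.60 to 8.63 FPKM in PimaS-7 and 18.5 to 24.01 FPKM in 5917. The part of these genes or of the cells they mark in the levels of *PARB* and *GLP10* was not tested.

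The replicates that were low for *PARB* differed in these fiber genes. In replicate 2 of PimaS-7 at 25 DPA, *TUBB1* had 1737 FPKM against 939 and 1099 in the other 2, and the wall regulator *MYB86* had 192 FPKM against 146 and 162. Replicate 3 of PimaS-7 at 30 DPA was the lowest of its group for *TUBB1*, with 666 FPKM against 843 and 767, and for the summed list, while *MYB86* had 62.9 FPKM against 59.9 and 65.97. Replicate 3 at 35 DPA was also the lowest of its group, with 23.6 FPKM of *TUBB1* against 29.97 and 54.8 and 11.2 FPKM of *MYB86* against 38.6 and 35.99. Seed markers were near 0 in the late stages: 2 of the 4 listed were measured, and their sum was at most 0.31 FPKM from 25 DPA on. The sum of 5 genes of dividing cells was between 22.3 and 47.7 FPKM at 25 to 35 DPA, mostly from *At1g54690*. At 25 DPA, *HIS2A* (Gbar_D08G020750) had 1.87, 1.56 and 8.01 FPKM and *At5g27670* had 1.20, 2.08 and 7.64 FPKM in 5917, against means of 0.10 and 0.19 FPKM in PimaS-7. Replicate 3 of 5917 was thus the highest for both and, in FPKM, also for *GLP10*. In CPM replicate 2 was the highest for *GLP10*, with 111 against 87.5 and 99.9 in replicates 1 and 3. The part of such cells in the *GLP10* level was not tested.

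On D08, the gene 4146 bases before *GLP10*, *TTE1956*, had a group mean of at most 0.028 FPKM anywhere, and *EXPA17*, an expansin that loosens walls, 12266 bases after it, was highest in ovules of PimaS-7 at 4.92 FPKM and at most 0.15 FPKM from 25 DPA on. Next to *PARB*, at 126816 and 180984 bases, *NFYB5* and *RALFL33* had group means of at most 0.52 and 0.22 FPKM. On D11, *SPCC777.06c*, a putative hydrolase gene 70257 bases from *GSTU17*, was highest in ovules of PimaS-7 at 2.71 FPKM, and *WRKY51*, at 126589 bases, in PimaS-7 at 30 DPA at 3.77 FPKM. *LIP1*, a small GTPase gene at 159335 bases, had its highest means at 10 DPA in both cultivars, as *GSTU17* did, at 5.76 and 6.19 FPKM, over a range of 3.18 to 6.19 FPKM. Only genes in the part held of the study's gene table entered here, so genes closer by were not analysed here.

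Genes with the most similar course were taken by Pearson r of log2(FPKM + 1) over the 48 libraries, among 54405 genes, as a description. For *GSTU17*, 95 genes had an r above 0.9. The first were Gbar_D11G007770 (r = 0.96) and Gbar_D07G011750 (0.95), and the first of the named genes of the intervals were *AGP14*, an arabinogalactan peptide of the cell surface (0.93), *HTH*, which in Arabidopsis is needed for separate floral organs and the cuticle (0.91), and *RPL37A*, a ribosomal protein (0.88). *AGP14* had its highest group means at 10 DPA as well, 121 FPKM in PimaS-7 and 115 FPKM in 5917, but its 15 DPA mean in 5917 was 74.7 FPKM, so it fell less than *GSTU17* there.

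For *PARB*, 378 genes had an r above 0.9, led by Gbar_A04G001590 and Gbar_D10G018480 (both 0.98). The named genes were *HMA5*, a copper-transporting ATPase (0.96), *Scyl2* (0.95) and *At2g40270*, an inactive receptor-like kinase (0.95). *HMA5* had at most 0.45 FPKM as a group mean to 20 DPA and 18.3 to 37.1 FPKM from 25 DPA on. Gbar_D10G018480 went further, from at most 0.12 FPKM to 1071 FPKM in 5917 at 35 DPA, against 245 FPKM in PimaS-7. For *GLP10*, 290 genes had an r above 0.9. The first were Gbar_A06G022570 (0.98) and Gbar_A08G003970 (0.97), and the named ones were *UFC* (0.93), the GDSL lipase gene *At1g54790* (0.91) and *ODO1*, a MYB regulator of scent in petunia (0.91). Of these *UFC* and *ODO1* were low, with group means of at most 1.23 and 7.84 FPKM. By Spearman's rho 87 genes exceeded 0.9 for *GSTU17* but 0 for *PARB* and 0 for *GLP10*, and of the 3 named genes of each, 3, 0 and 1 were again among the first 3.

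To set the 3 genes against their pathways, 43 other redox genes of the mapped intervals were grouped by role, and 26 of them were measured. Of these 26, 16 reached a mean of 1 FPKM in at least 1 group: both other glutathione transferases, all 4 genes of glutathione synthesis and glutathione peroxidases, 6 of 7 for superoxide and ascorbate, but 1 of 4 glutaredoxins and thioredoxin-like genes, 2 of 6 peroxidases and laccase and 1 of 3 germin-like genes. *GLP10* was thus the germin-like gene with the highest level among those measured here, since the highest group mean of the other 3 was 1.59 FPKM, of a *GLP6* gene (Gbar_D11G026720) in ovules of 5917. The list holds 17 other germin-like genes, of which only these 3 were measured, so the place of *GLP10* in its family is not known.

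**Figure D4:**
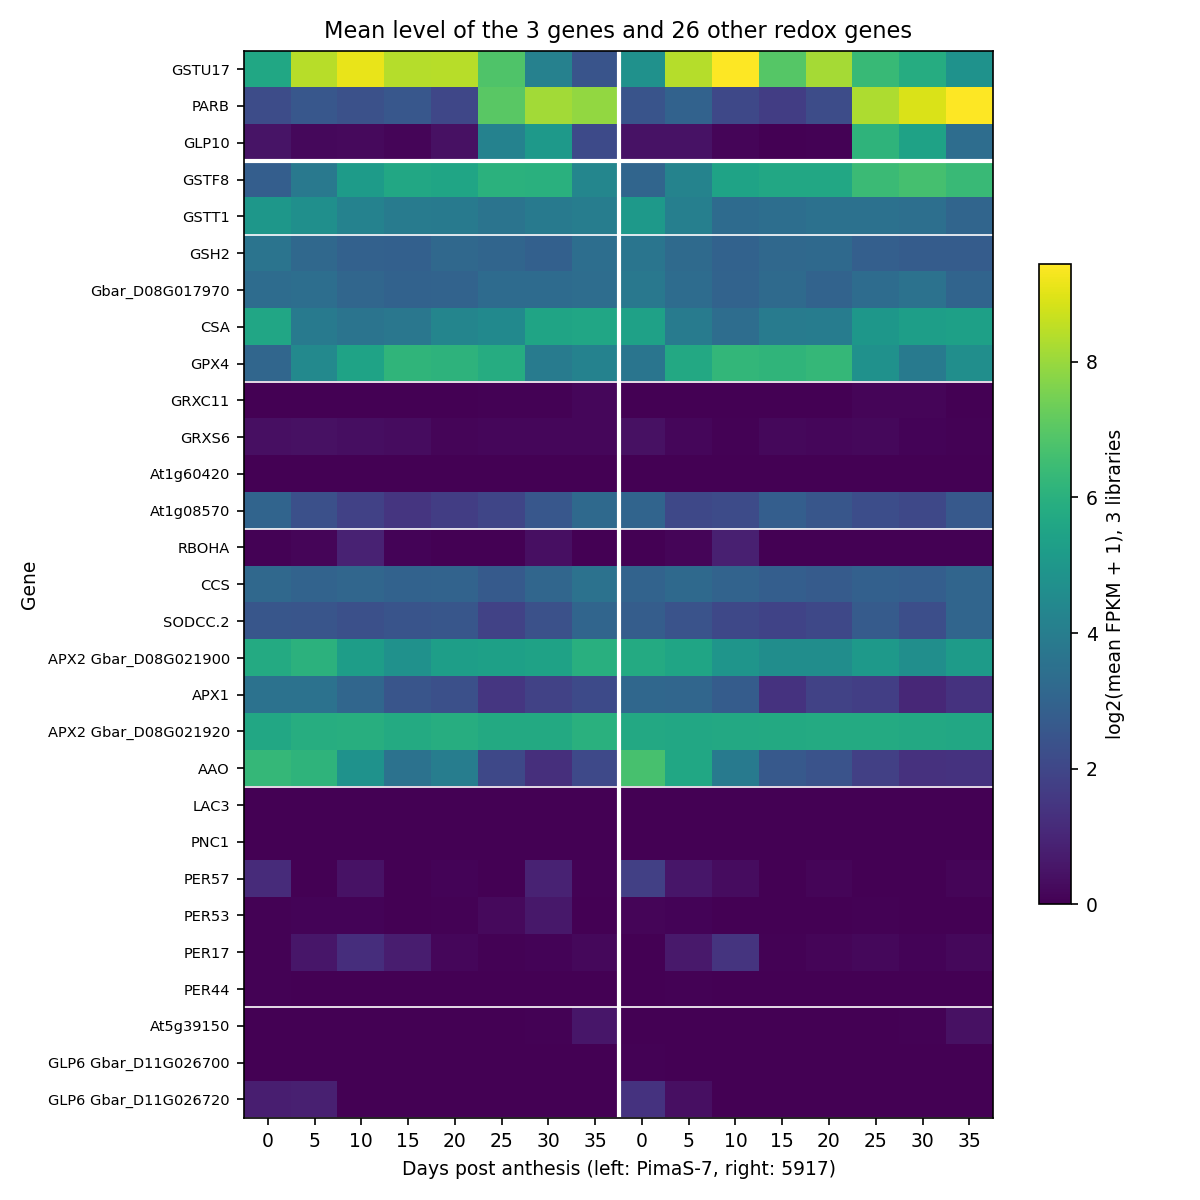
Mean levels over 3 libraries, as log2(mean FPKM + 1), of the 3 genes (top rows) and of 26 other redox genes grouped by role, for 8 stages of PimaS-7 (left) and 5917 (right). Most peroxidase and germin-like rows are dark, at under 1 FPKM, and *GSTF8*, *GPX4*, *CSA* and *AAO* change with the stage.

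The list was described in 4 comparisons. In the step of 5917 from 10 to 15 DPA, where *GSTU17* fell, 1 of 15 genes tested was called higher and 4 lower, or 33.3% against 20.3% of all genes, with a list median of 0.21 against -0.08. The thioredoxin-like gene *At1g08570* rose from 7.35 ± 2.15 to 16.6 ± 2.37 CPM (counts scaled to library size, mean ± SD, n = 3, log2 fold change 1.13, adjusted p = 0.0064). *APX1*, a cytosolic ascorbate peroxidase that reduces hydrogen peroxide, fell from 10.9 ± 1.46 to 3.98 ± 0.80 CPM (log2 fold change -1.496, adjusted p = 0.00069). *AAO* (Gbar_D08G021990), an ascorbate oxidase, fell from 38.7 ± 13.3 to 19.9 ± 6.49 CPM (log2 fold change -1.01, adjusted p = 0.035).

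In the step from 20 to 25 DPA, where *PARB* and *GLP10* came on, few of the other redox genes were called. PimaS-7 had 0 of 13 higher and 1 lower, or 7.69% against 14.1% of all genes, with a median of 0.17 against -0.05. The lower gene was the same *AAO*, at 47.4 ± 14.4 CPM and then 13.03 ± 2.71 CPM (log2 fold change -1.88, adjusted p = 0.0033). In 5917, 1 of 13 was called higher and 1 lower, or 15.4% against 25.7%, with medians of 0.08 and 0.08. *CSA*, a phospholipid hydroperoxide glutathione peroxidase, rose from 26.1 ± 3.46 to 58.0 ± 10.7 CPM (log2 fold change 1.16, adjusted p = 0.0043), and *GPX4*, another glutathione peroxidase, fell from 69.8 ± 4.75 to 25.0 ± 8.19 CPM (log2 fold change -1.47, adjusted p = 0.0048).

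Between the cultivars at 35 DPA, 1 of 14 redox genes tested was called, or 7.14% against 18.2% of all genes, with a median of -0.07 against 0.15. It was *GSTF8*, a phi class glutathione transferase named as chloroplastic, with 119 ± 11.6 CPM in 5917 and 18.7 ± 8.07 CPM in PimaS-7 (log2 fold change -2.62 ± 0.35, adjusted p = 0.0059). In FPKM its group means were highest at 25 DPA in PimaS-7, at 64.5, and at 30 DPA in 5917, at 98.6, and at 35 DPA were 19.3 and 82.3. *GSTF8* was thus lower in PimaS-7 at 35 DPA beside *GSTU17*, *PARB* and *GLP10*. *GSTT1*, the other glutathione transferase of the list, had its highest means in ovules, at 30.6 FPKM in PimaS-7 and 32.4 FPKM in 5917.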

How the data were processed

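The deposited files hold 1 whole read count and 1 FPKM value per gene and library for 69337 genes and 48 libraries. By the methods of the study, the authors discarded poor reads and adapters, mapped the remainder to HAU v2.0 of Pima 3-79 by HISAT2, and used StringTie for quantification. FPKM values were computed by the authors, and the counts were deposited without normalization. The HISAT2 version, the counting program and its strand setting are not given in the sources used here. The gene length column of the deposited count table was read and not used in a test.

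Counts were tested with edgeR 4.0.16 in R 4.3.3 (quasi-likelihood F-test, TMM, filterByExpr with a count minimum of 10). A fit held the 6 libraries of a pair of groups, or 12 for an interaction, with Benjamini-Hochberg adjustment over all genes tested. Intervals are the estimate ± 1.96 SE. The alternatives were DESeq2 1.42.0, limma 3.58.1 (log2(FPKM + 1), FPKM above 0.5 in 3 or more libraries), other size factors, no filter, 1 fit of all libraries, a replicate block and each library left out. The functions were tested on simulated data. FPKM has no depth, and count precision follows totals of 28222056 to 43390702 per library.

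Members and lists were chosen with earlier results of these data known. A comparison counted as having chosen a gene where the gene was called, its groups did not overlap, it reached 5 CPM and it was among the 10 named genes with the largest change. The step from 20 to 25 DPA counted so for *PARB* and *GLP10* in both cultivars. Of the list, genes named were called, at 5 CPM or more in 1 group, without overlap, and among the 3 with the largest change in each direction. Of the 43 list genes 17 were not analysed here. No sequence was used.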

Additional observations from a re-analysis of the deposited data

Results flagged for a closer look

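Interaction estimates, PimaS-7 against 5917, met the thresholds for a call in 3 steps of these genes. Only that of *GSTU17* from 10 to 15 DPA did not include a step that chose the gene. The change of *GSTU17* from 10 to 15 DPA was higher in PimaS-7 by 1.83 ± 0.28 on the log2 scale (adjusted p = 0.0017, edgeR). The change of *GSTU17* from 25 to 30 DPA differed by -2.86 ± 0.39, and that of *GLP10* from 20 to 25 DPA by -4.19 ± 0.95, which was not called without replicate 1 of PimaS-7 at 20 DPA (-3.28). These last values include steps that chose the gene, so no p is given for them.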

How the results depend on the processing

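Of the 29 tests of the 3 genes that were compared over the alternatives, 11 were called, in comparisons that called from 0.0182% to 25.7% of all genes tested. The tests of *PARB* from 30 to 35 DPA and between cultivars up to 20 DPA, which were not called, were not among them. With another tool, scaling or filter, *GLP10* between cultivars at 30 DPA reversed to 0.12 with limma, and without single libraries it ranged from -0.98 to 0.38, the latter without replicate 2 of 5917. The change of *GSTU17* from 5 to 10 DPA in PimaS-7 was 0.74 with limma, under the fold required. With the replicate block, that of *GSTU17* from 30 to 35 DPA in PimaS-7 was -2.12 and no longer called, that of *GLP10* in the same step was -3.46 and no longer called, and no other call of the 3 genes changed. Same-numbered replicates did not share deviations by the rule used: in 0 of 22 comparisons were the correlations of all 3 same-numbered pairs above 0.1. Single correlations ran from -0.42 to 0.23, and the rule cannot show whether such replicates came from the same plant or harvest. Leaving out each library in turn gave log2 fold changes of -2.21 to -1.60 for *GLP10* between cultivars at 25 DPA, -2.64 to -1.64 for *PARB* at 35 DPA, and for *GSTU17* of 0.78 to 1.34 (5 to 10 DPA, PimaS-7), -1.59 to -1.02 (20 to 25 DPA, PimaS-7), -2.01 to -1.49 (20 to 25 DPA, 5917) and -2.46 to -1.69 (30 to 35 DPA, PimaS-7). The count of redox genes called was 3 with limma against 5 in 5917 from 10 to 15 DPA. Between cultivars at 35 DPA it was 2 with DESeq2 and with 1 fit of all libraries, against 1, and 1 to 2 without single libraries, as in PimaS-7 from 20 to 25 DPA. The cause was not tested.

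Counts over all genes moved more. From 25 to 30 DPA in 5917 edgeR called 18 genes and DESeq2 1508 (3695 at an unadjusted p under 0.05 by edgeR), and from 30 to 35 DPA 8 and 829 (4134). The step from 30 to 35 DPA in PimaS-7 had 1889 calls, 4998 with DESeq2, 0 with the replicate block and 0 to 3193 without single libraries. The contrasts at 25, 30 and 35 DPA had 3165, 3616 and 8370 calls, 6084, 6790 and 10613 with DESeq2, and 925 to 4677, 902 to 4017 and 3626 to 11325 without single libraries. With limma 87.7% of calls at 30 DPA and 76.6% at 35 DPA were higher in PimaS-7, against 68.4% and 45.7%, with all-gene medians shifted by 0.24 and 0.30. With limma, the calls were 4759 against 9276 (5917, 10 to 15 DPA), 7201 against 11944 (5917, 20 to 25 DPA) and 3903 against 6437 (PimaS-7, 20 to 25 DPA). The alternatives for the interactions and the correlations without 1 replicate number were chosen after seeing the data.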
